A study of Pan paniscus with 11 samples.

Results

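Metallothioneins are small cysteine-rich proteins that bind zinc and copper, buffer free zinc and take up toxic metals such as cadmium. Their genes form a cluster and are switched on by zinc through the metal-sensing transcription factor MTF1, and also by glucocorticoids and by oxidative stress. MT2A and the MT1 genes are expressed in many tissues, fibroblasts among them, whereas in humans MT3 is best known from brain and MT4 from stratified squamous epithelium.

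The 6 genes described here, MT1X, MT1F, MT1H, MT1E, MT1G and MT2A, were chosen by name, out of 8226 genes to which the array annotation gave a symbol of their own. Each had 1 probe set, identified as 39120_at for MT1X, 31622_f_at for MT1F, 39594_f_at for MT1H, 36130_f_at for MT1E, 926_at for MT1G and 39081_at for MT2A. The suffix f_at marks an Affymetrix probe set whose probes match several members of a sequence family, so the 3 probe sets of MT1F, MT1H and MT1E may each read RNA of other metallothionein genes. In addition, 1 probe set with several symbols, a member's among them, was not used. The array carries human sequences, and mismatches to bonobo RNA can lower a signal, so intensities were compared between cultures within a probe set and not between genes. A RefSeq gene table for the bonobo (NHGRI_mPanPan1-v2.0_pri) held 1 of the 6 symbols, MT1X. It places MT4, MT3 and MT1X in this order between BBS2 and NUP93 on chromosome 18, with 8 protein-coding genes without a gene symbol between MT3 and MT1X.

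RNA was measured in fibroblast lines of normal bonobos (Pan paniscus), on 1 array per culture and 11 arrays in all. The donors of male lines 1 to 5 were 4, 2, 12, 17 and 19 years old and those of female lines 1 to 5 were 9, 2, 4, 20 and 20 years old, and these 10 cultures were taken under standard conditions. Male line 1 was also harvested once at 50% confluence. Nothing was added to any culture as far as the labels state. Passage number, body site, the zinc content of the medium and the confluence of the standard cultures are not given. Each standard line is 1 animal and 1 culture, so animal and culture effects cannot be told apart, and p-values measure the spread between lines.

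All 8 fibroblast markers on the array, among them VIM and COL1A2, were above the floor of 100 in all 11 cultures, with a median intensity of 6800. The median was 100 for the 6 epithelial, the 4 endothelial and the 3 melanocyte markers and 120 for the 4 blood markers, whose summed intensity ran from 484 to 790. Low values had been raised to 100 in 9 arrays and to 90 in the arrays of male line 5 and of the 50% confluence culture. Precision depends on how many arrays there are and on the spread between lines.

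MT1X, a metal-inducible MT1 gene, was above the floor in every culture. It read 167, 287, 354, 475 and 420 in male lines 1 to 5, and 719, 151, 348, 311 and 956 in female lines 1 to 5. The male values lay inside the female range, and female lines 5 and 1 were the highest of the 10. Female line 2 and male line 1, from animals of 2 and 4 years, were the lowest, and the highest line stood 6.33-fold above the lowest.

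MT1F, another MT1 gene, read 598, 1115, 1503, 1018 and 856 in male lines 1 to 5, and 842, 685, 996, 1797 and 2963 in female lines 1 to 5. Female line 5 was 1.65-fold above the next line, female line 4. Male line 1 was the lowest of the 10.

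MT1H read 898, 1277, 1839, 1018 and 1954 in male lines 1 to 5, and 1574, 927, 1288, 1946 and 3677 in female lines 1 to 5. Female line 5 again led, 1.88-fold above male line 5, the next. The intensities of male line 5 and female line 4 were nearly equal, and male line 1 and female line 2 were the lowest.

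MT1E read 1800, 1765, 1881, 1850 and 1165 in male lines 1 to 5, and 2223, 1339, 2379, 2428 and 3818 in female lines 1 to 5. Male lines 1 to 4 lay close together, and 4 of the 5 female lines were above every male line. The groups overlapped through female line 2.

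MT2A, a gene expressed in most tissues, read 195, 256, 201, 215 and 181 in male lines 1 to 5. It read 122, 151, 175, 396 and 219 in female lines 1 to 5. Its order of lines differed from that of the MT1 genes, with female line 4 highest, male line 2 next and female line 1 lowest.

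MT1G was near or at the floor. It read 120 in male line 1, 117 in male line 5 and 116 in female line 5, and 100 in the other 7 standard lines and at 50% confluence. Being above the floor in 3 of 11 cultures, fewer than the 5 required, it was not tested, so 5 of the 6 members entered the tests.

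**Figure D1:**
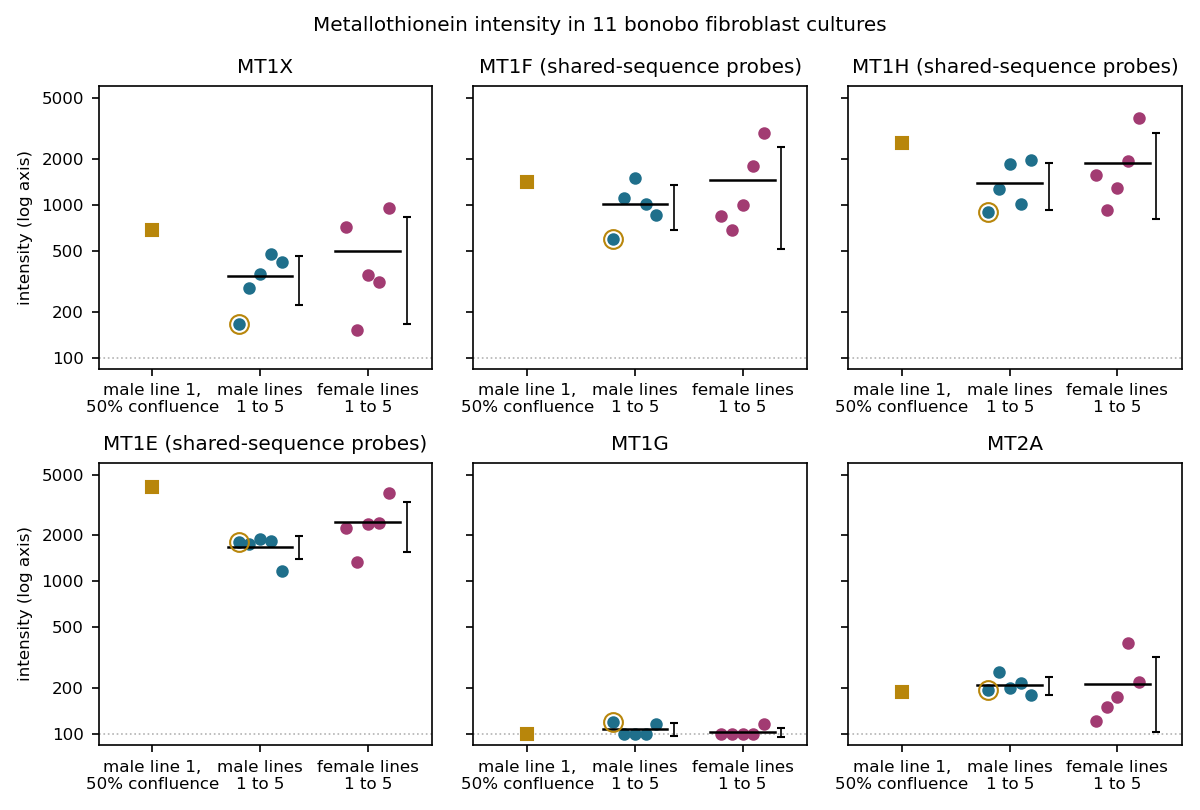
Intensity (log axis) of the 6 metallothionein genes in the 50% confluence culture of male line 1 (square), in male lines 1 to 5 and in female lines 1 to 5 (points, line 1 on the left of each group), with the mean and SD of each group of 5; the ring marks the standard culture of male line 1 and the dotted line the floor of 100. The square lies well above the ring for MT1X, MT1F, MT1H and MT1E and not for MT2A, and female line 5 is the highest line for the same 4 genes.

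Ranked within each gene, female line 5 was first of 10 for 4 of the 5 tested members and behind female line 4 and male line 2 for MT2A. Female line 4 was among the top 2 for 3 members, MT1F, MT1E and MT2A, but behind 6 lines for MT1X. Both came from animals of 20 years. Female line 2 was among the lowest 2 for all 5 tested members, and male line 1 among the lowest 2 for MT1X, MT1F and MT1H. The SD of log2 intensity between lines was 0.83 for MT1X, 0.69 for MT1F, 0.62 for MT1H, 0.48 for MT1E and 0.45 for MT2A. The median over all 7333 tested probe sets was 0.43, so the 5 members ran from percentile 56.7 (MT2A) to percentile 95.2 (MT1X).

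Levels in male and female lines were then compared in a limma fit of sex and age over all tested probe sets. Of the 5 tested members, 0 were called at an adjusted p under 0.05, and 0 had an unadjusted p under 0.05; over the whole table, 0.0273% of probe sets were called. The log2 estimate, male minus female, was -0.33 ± 0.39 (SE) for MT1X, -0.35 ± 0.30 for MT1F, -0.32 ± 0.26 for MT1H, -0.47 ± 0.25 for MT1E and 0.10 ± 0.31 for MT2A. MT1E averaged 1692 ± 298 in male lines and 2437 ± 889 in female lines (SD, n = 5 each), with a limma unadjusted p of 0.0818 and an adjusted p of 0.9999. The 95% interval of its log2 difference ran from -0.9995 to 0.067. MT2A averaged 210 ± 28.7 in male lines and 213 ± 109 in female lines (SD, n = 5 each), and its interval, -0.56 to 0.76, covers differences in both directions. Single lines moved these estimates by more than 1.5 times. Leaving out 1 line at a time, the estimate ran from -0.63 (without female line 4) to -0.091 (without female line 1) for MT1X and from -0.56 (without male line 2) to -0.13 (without female line 5) for MT1F. It ran from -0.46 to -0.12 (without male line 4) for MT1H, and from -0.66 to -0.27 (without male line 5) for MT1E. Without female line 5 it was -0.14 for MT1X, -0.14 for MT1H and -0.29 for MT1E. For MT2A it changed sign, from -0.057 without female line 1 to 0.345 without female line 4. The median estimate of the 5 members was -0.33, and that of all tested probe sets was 0.0032.

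The age slope from the same fit was positive for all 5 tested members, and 0 of them were called; over the whole table, 0% of probe sets were called and 49.4% of slopes were positive. The estimates were 0.67 ± 0.27 (SE) log2 per 10 years for MT1X, 0.57 ± 0.21 for MT1F, 0.56 ± 0.18 for MT1H, 0.25 ± 0.21 for MT2A and 0.18 ± 0.17 for MT1E. For MT1X, MT1F and MT1H the limma p before adjustment was 0.0250, 0.0166 and 0.00731, and the adjusted p was 0.999 for each. The 5 members had a median slope of 0.56, against -0.0031 for all tested probe sets, of which 3.42% had an unadjusted p under 0.05. The slope of MT1E was 0.015 without female line 2, 0.031 without female line 5 and 0.33 without male line 5. That of MT2A was 0.036 without female line 4 and 0.38 without male line 2, and that of MT1F was 0.37 without female line 5. Leaving out 1 line, the slopes ran from 0.45 to 0.93 for MT1X and from 0.40 to 0.68 for MT1H. Because the 3 probe sets of MT1F, MT1H and MT1E may read the same RNA, their slopes cannot be counted as separate measurements.

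By age, the 4 lines of 2 and 4 years read 151 to 348 for MT1X and 898 to 1288 for MT1H, and the 4 lines of 17 to 20 years read 311 to 956 for MT1X and 1018 to 3677 for MT1H. The youngest and oldest lines overlapped for both genes. The 2 lines of 20 years were far apart for MT1X, at 311 in female line 4 and 956 in female line 5.

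**Figure D2:**
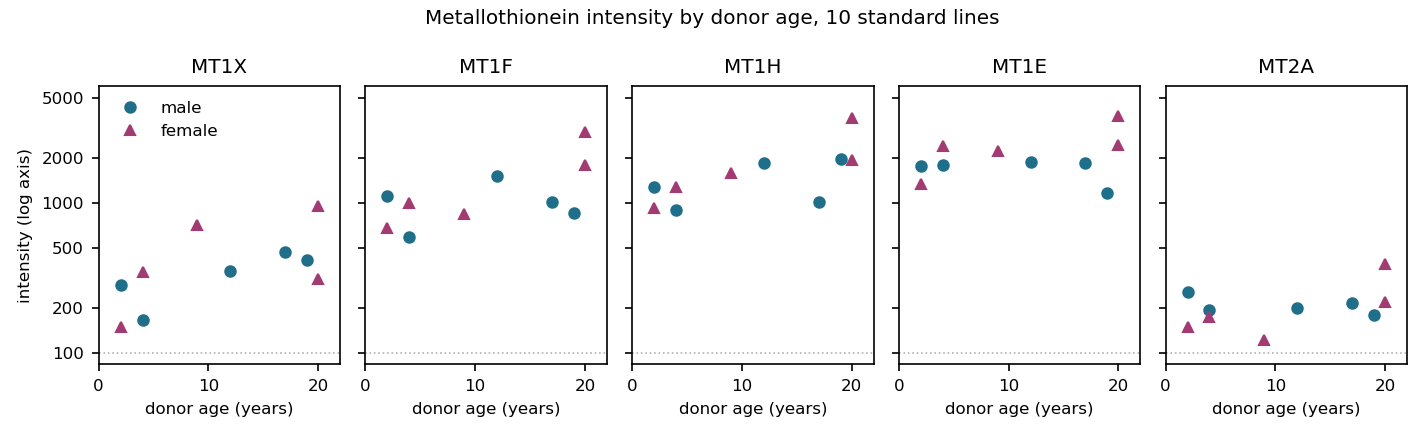
Intensity (log axis) against donor age in years for the 5 tested members, with male lines as circles and female lines as triangles; the dotted line is the floor of 100. The 2 female lines of 20 years hold the highest values for MT1F and MT1E, and the 2 male lines of 17 and 19 years do not stand above the younger males for MT1F, MT1E or MT2A.

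Whether the slope differed between the sexes was tested with an interaction term. With limma it was called for 0 of the 5 tested members, against 0.0136% of all tested probe sets. The difference in slope, male minus female, came to -0.80 ± 0.38 (SE) log2 per 10 years for MT1F, -0.70 ± 0.40 for MT2A, -0.67 ± 0.31 for MT1E, -0.46 ± 0.36 for MT1H and -0.053 ± 0.56 for MT1X. Only MT1E, 1 of the 5, was under 0.05 before adjustment, with a limma unadjusted p of 0.0475 and an adjusted p of 0.973, and 4.84% of all tested probe sets were under it. Leaving out 1 line at a time, the estimate ran from -1.11 to -0.556 for MT1F, from -0.90 to -0.40 (without female line 4) for MT2A, from -0.88 to -0.43 (without male line 5) for MT1E and from -0.74 (without female line 4) to -0.205 (without female line 5) for MT1H. The MT1X estimate turned positive, up to 0.42, when male line 2, male line 5, female line 2 or female line 5 was left out, so its direction is not settled.

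Harvest at 50% confluence was described in male line 1, where 1 culture per state allows no test. The confluence of its standard culture is not given, so the size of any difference in density is not known. MT1X read 683 at 50% confluence and 167 in the standard culture, a 4.09-fold difference (2.03 on the log2 scale). MT1H read 2547 at 50% confluence and 898 in the standard culture, and was 2.84-fold higher. MT1F read 1406 at 50% confluence and 598 in the standard culture, 2.35-fold higher, and MT1E read 4127 at 50% confluence and 1800 in the standard culture, 2.29-fold higher. MT2A was nearly the same in both cultures, at 188 at 50% confluence and 195 in the standard culture. MT1G was at the floor at 50% confluence and read 120 in the standard culture.

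Of the 5 members above the floor in both cultures, 4 were thus over 2-fold higher at 50% confluence and none was over 2-fold lower. Among these 4, MT1F, MT1H and MT1E have f_at probe sets that may read the same RNA, so they cannot be counted as separate measurements. Of the members whose probe sets lack the f_at suffix, MT1X was higher and MT2A was nearly the same. MT2A read near the floor in both, 188 at 50% confluence and 195 in the standard culture, which limits what its small difference shows. For comparison, 4.91% of all 6147 probe sets above the floor in both cultures passed 2-fold upwards and 4.75% downwards. The count of 4 was the same under quantile normalization, median centring and a pseudocount of 50, with the median of the 5 members between 1.18 and 1.23 on the log2 scale. With a floor at 200, MT1X and MT2A dropped out because the standard culture read below it, and the other 3 were all over 2-fold higher.

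The standard culture of male line 1 was itself low. It was the lowest of the 10 standard lines for MT1F and MT1H and had 1 line below it for MT1X and 3 for MT1E. At 50% confluence, MT1E exceeded all 10 standard lines and MT1H exceeded 9, all but female line 5. MT1X exceeded 8 of the 10 and MT1F 7, so that for 3 of these 4 genes the 50% confluence value lay inside the range of standard lines. Among the 45 pairs of different standard lines, 4 pairs differed by more than the 2 cultures for MT1X, 10 for MT1F, 5 for MT1H and 2 for MT1E. The array's 18S ribosomal RNA controls read 1508 to 2611 at 50% confluence and 100 in the standard culture, and 100 to 313 over the 10 standard lines. The actin control of the 3′ end read 14667 at 50% confluence and 28996 in the standard culture, and that of the 5′ end 21928 at 50% confluence and 20455 in the standard culture. The ratio of 3′ to 5′ was 0.669 at 50% confluence and 1.42 in the standard culture, with 0.853 to 2.27 over the 10 standard lines. The antisense control for the 3′ end of actin read 2707 at 50% confluence and 758 in the standard culture, with 348 to 2201 over the 10 standard lines. The part of these control signals in the differences was not tested.

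**Figure D3:**
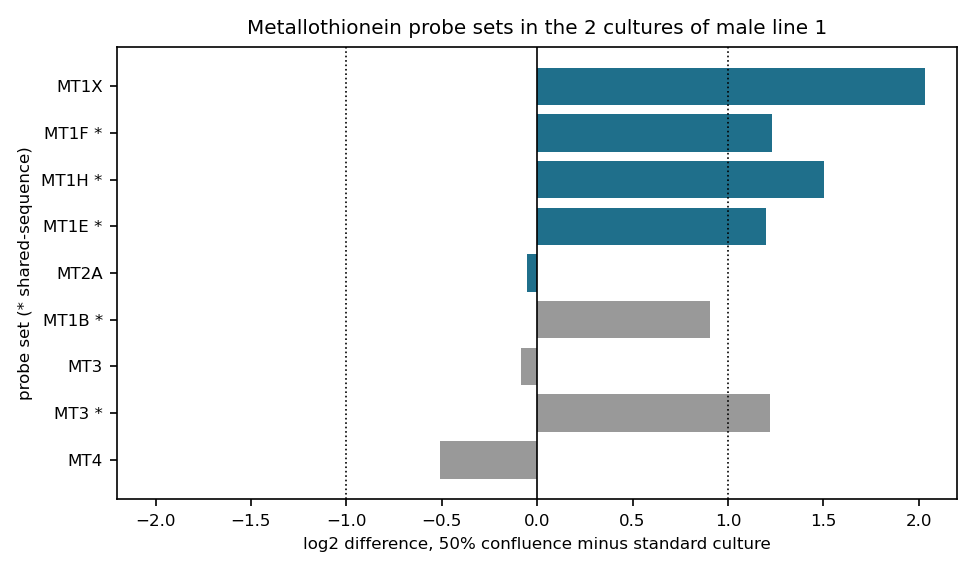
Log2 difference in intensity, 50% confluence minus standard culture of male line 1, for the metallothionein probe sets above the floor in both; blue bars are the members, grey bars other metallothionein genes, asterisks mark shared-sequence (f_at) probe sets and dotted lines mark 2-fold. MT1X has the longest bar (2.03), and the shared-sequence probe sets lie between 0.90 and 1.504. MT2A and the other probe set of MT3 lie near 0, and MT4 lies at -0.51.

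Other metallothionein genes were read by f_at probe sets and by probe sets without that suffix. MT1B and MT3 each have an f_at probe set, 609_f_at and 870_f_at. The f_at probe set of MT3 read 651, 735, 856, 577 and 916 in male lines 1 to 5, and 875, 588, 595, 1170 and 2210 in female lines 1 to 5. Its other probe set, 1346_at, read 388, 434, 251, 100 and 137 in the males and 107, 148, 337, 100 and 196 in the females, a different order of lines. The 2 probe sets of MT3 had a Pearson r of -0.18 over the 10 lines, whereas the f_at probe set of MT3 had an r of 0.94 with MT1H and 0.96 with MT1B. The SD of the log2 ratio between the f_at probe sets of MT3 and MT1B was 0.16, the smallest of any pair with a relative. At 50% confluence the f_at probe set of MT3 was 2.33-fold above the standard culture and that of MT1B 1.87-fold, while 1346_at read 366 at 50% confluence and 388 in the standard culture. MT4 had 1 probe set above the floor in all 11 cultures, with 222 to 469 in male lines and 239 to 384 in female lines, and its other probe set was above the floor in female line 3 alone. The limma age slope was 0.51 log2 per 10 years for the f_at probe set of MT3 and 0.39 for that of MT1B. In contrast, it was -0.67 for 1346_at (limma unadjusted p = 0.0191) and -0.067 for the tested probe set of MT4. The adjusted p was 0.999 for each.

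Agreement among the members across the 10 lines was examined in 10 pairs of tested members. By Pearson's r, 3 of the 10 passed at a Benjamini-Hochberg adjusted p under 0.05 (two-sided permutation test, 100000 resamples). The adjustment covered these 10 pairs alone. Genes outside the family were set beside them, 4325 with an SD of at least 0.3. Of these, 32 had a higher r with MT1X than its closest fellow member had. The same count was 16 for MT1E, 2 for MT1H and 1 for MT1F. MT1F and MT1H, both read by f_at probe sets, had r = 0.85 (permutation p = 0.00224, adjusted p = 0.0224) and rho = 0.67 (permutation p = 0.0394, adjusted p = 0.159). MT1F and MT1E, again both f_at, had r = 0.75 (permutation p = 0.0137, adjusted p = 0.0457) and rho = 0.61 (permutation p = 0.0660, adjusted p = 0.165). MT1X and MT1H had r = 0.74 (permutation p = 0.0137, adjusted p = 0.0457) and rho = 0.65 (permutation p = 0.0477, adjusted p = 0.159). By Spearman's rho, 0 of the 10 pairs passed the adjustment, and 3 had an unadjusted permutation p under 0.05.

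These relations rest in part on the extreme lines. Without the 2 lines farthest from the median of the first gene, r was 0.58 for MT1F and MT1H, 0.30 for MT1F and MT1E and 0.41 for MT1X and MT1H. Without female line 5, the line highest for all 4 MT1 genes tested, r was 0.68, 0.48 and 0.56 for the same pairs. There 0 of the 10 pairs passed, as also without male line 1, male line 3, female line 2 or female line 4. Without male line 3, r was 0.85, 0.78 and 0.76 for these pairs, so the count alone does not single out female line 5. MT1H and MT1E, both f_at, had r = 0.58 over the 10 lines, 0.14 without female line 5 and 0.87 without male line 5. MT2A and MT1X had r = -0.084 (permutation p = 0.825, adjusted p = 0.825) and rho = 0.0061. With MT1F, MT2A had r = 0.55 (permutation p = 0.104, adjusted p = 0.149) and rho = 0.77 (permutation p = 0.0125, adjusted p = 0.125), and r was 0.70 without female line 5, the highest of the 10 pairs in that setting.

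**Figure D4:**
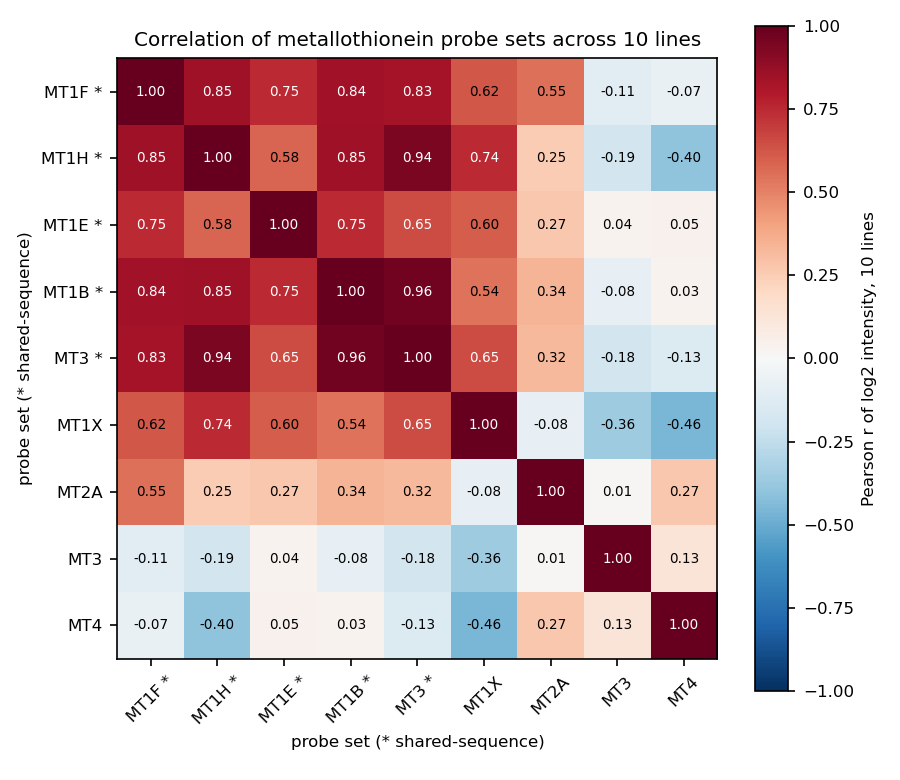
Pearson r of log2 intensity over the 10 standard lines for every pair of tested metallothionein probe sets, members and relatives; asterisks mark shared-sequence (f_at) probe sets. Among the 5 f_at probe sets r runs from 0.58 (MT1H with MT1E) to 0.96, MT1X has 0.54 to 0.74 with them, MT2A has 0.25 to 0.55 with them, and the other probe set of MT3 and MT4 have values below 0.05 with them.

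MT2A was also set against genes of the pathways that induce metallothioneins, and 0 of 5 relations passed by r or rho. The genes were MTF1, the zinc exporter gene SLC30A1, the heme oxygenase gene HMOX1, the glutathione synthesis gene GCLM and the glucocorticoid-induced gene TSC22D3. FKBP5 was above the floor in too few cultures. The relation of lowest p was that with TSC22D3, with r = -0.50 (permutation p = 0.137, adjusted p = 0.685), rho = -0.66 (permutation p = 0.0443, adjusted p = 0.222) and r = -0.55 without the 2 farthest lines. The zinc sensor gene MTF1 had r = -0.34 (permutation p = 0.344, adjusted p = 0.860) and rho = -0.36 (permutation p = 0.312, adjusted p = 0.520). HMOX1 had r = -0.11 (permutation p = 0.782, adjusted p = 0.909) and rho = 0.22 (permutation p = 0.540, adjusted p = 0.675). Without the 2 farthest lines r was 0.62 for HMOX1, so its sign changed. It was -0.19 for MTF1, -0.091 for SLC30A1 and -0.42 for GCLM in that setting. HMOX1 read 1051, 2447, 2463, 1443 and 1414 in male lines 1 to 5, and 1706, 1276, 623, 754 and 3377 in female lines 1 to 5. Of the 12 tested genes of the oxidative stress list (targets and regulators of the factor NRF2), 2 were highest in female line 5. These were HMOX1 and the malic enzyme gene ME1. Another 2 were lowest there, the thioredoxin reductase gene TXNRD1 and the glutamate-cysteine ligase gene GCLC, the latter at the floor of 100. With ties left out, 2 of 15 zinc and metal handling genes were highest in female line 5 and 4 lowest. The counts were 0 and 2 of 8 for glucocorticoid response genes and 0 and 0 of 7 for heat shock genes. In the same line SLC30A1 read 309, the second lowest of the 10, in which it spanned 189 to 928.

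The genes whose pattern over the 10 lines was most like that of MT2A were ranked by Pearson r among 4325 genes with an SD of at least 0.3, as a description. The replication factor gene RFC5 (r = 0.92), VAMP1 (0.89), TRAM2 (0.87), KYNU (0.87), UGDH (0.87), ESR2 (0.86), SP140 (0.85), MKLN1 (0.85), CTNND1 (0.84) and VASH1-AS1 (0.83) were highest. Of these 10 genes, 9 were highest in female line 4, as was MT2A. Several reached down to the floor in the standard lines, such as RFC5 (100 to 456), SP140 (100 to 272) and VASH1-AS1 (100 to 205). TRAM2 (2372 to 6387) and UGDH (2007 to 6156) read far above it. The lowest were the stress-response gene NUPR1 (-0.91), the amino acid response transcription factor gene ATF4 (-0.89), the seryl-tRNA synthetase gene SARS1 (-0.86), the serine synthesis gene PHGDH (-0.86) and NACC2 (-0.86). For MT2A, 267 of the 4325 genes had a higher r than its closest fellow member, MT1F, had.

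The likeness of MT1X and of MT1H was added after the data had been seen. Nearest to MT1X were ZMYM3 (r = 0.89), GIP (0.89), the mitochondrial citrate carrier gene SLC25A1 (0.86), GNPDA1 (0.85) and the glutathione peroxidase gene GPX1 (0.84). Nearest to MT1H were the transcription factor gene TFAP2C (0.94), the cathepsin gene CTSH (0.85) and ADRA1B (0.84). The 10 nearest genes of MT1X and those of MT1H each shared 0 with the 10 nearest of MT2A. Each of these genes was measured on the same arrays, lines and scaling as the member.

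Other genes of metal handling and of the inducing pathways were read through 4 lists. With limma, 0 genes of any list were called for sex, age or the interaction, and 1 gene each had an unadjusted p under 0.05, SLC39A14, TSC22D3 and SLC39A7. In the zinc and metal handling list, 15 of 19 genes on the array were tested, with a median age slope of 0.063 and 10 positive. In the list of targets and regulators of the oxidative stress factor NRF2, 12 of 14 were tested, with a median age slope of -0.061 and 9 negative. The glucocorticoid list had 8 of 12 tested and a median of -0.087, and the heat shock list 7 of 8 and -0.15. The zinc importer gene SLC39A14 had a log2 estimate, male minus female, of -0.47 with a limma adjusted p of 0.9999. The age slope of TSC22D3 was -0.58 with a limma adjusted p of 0.999.

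Between the 2 cultures of male line 1, 12 NRF2 genes were above the floor in both. At 50% confluence 11 of them were higher (10 with quantile normalization or median centring), against 50.3% of all 6147 probe sets, and 3 exceeded 2-fold, against 4.91%. Their median log2 difference was 0.34, against 0.0052 for all. NFE2L2, the gene of NRF2 itself, read 1518 at 50% confluence and 498 in the standard culture. The quinone reductase gene NQO1 read 2898 at 50% confluence and 1133 in the standard culture, and the thioredoxin gene TXN 12963 at 50% confluence and 6237 in the standard culture. With quantile normalization 2 of the 3 exceeded 2-fold. HMOX1 was the 1 lower gene, with 826 at 50% confluence and 1051 in the standard culture.

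The other lists are read against the same 50.3%. Of 13 zinc and metal handling genes above the floor in both cultures, 5 were higher and 8 lower at 50% confluence (median -0.19). SLC31A2, at the floor of 100 in the standard culture, was not among the 13 and read 427 at 50% confluence. The copper importer gene SLC31A1 read 770 at 50% confluence and 346 in the standard culture, and the zinc transporter gene SLC39A7 read 654 at 50% confluence and 2141 in the standard culture. The log2 difference was -0.19 for MTF1 and 0.25 for SLC30A1. Of 8 glucocorticoid genes, 5 were higher (4 with quantile normalization or median centring, where 49.1% and 47.0% of all were). TSC22D3 read 818 at 50% confluence and 433 in the standard culture, and its other probe set 396 at 50% confluence and 172 in the standard culture. The glutamine synthetase gene GLUL read 277 at 50% confluence and 692 in the standard culture. Of the 6 heat shock genes above the floor in both cultures, 4 were higher (3 with quantile normalization or median centring). None of the 6 differed by over 2-fold. Among them HSPB1 differed most, with 17220 at 50% confluence and 9130 in the standard culture. HSPA1B was at the floor of 100 in the standard culture, so it was not among the 6, and read 243 at 50% confluence.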

How the data were processed

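The values the authors deposited are linear intensities, 1 whole number for each of 12625 probe sets of a human Affymetrix array. The sources used here do not say how probes were summarised, how arrays were scaled or why low values were raised, and the deposited intensity values were kept as scaled. Groups follow the sex, age and harvest state in the labels. Lines were numbered by accession, and these numbers do not pair samples. The members, lists and tests were chosen with earlier results of these data known. Values under 100 were set to 100 before log2 transformation. Without the 67 control probe sets, the 7333 probe sets above 100 in at least 5 of 11 arrays were tested.

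Sex (male minus female) and age, and their interaction in a further fit, were estimated over the 10 standard lines in limma (version 3.58.1, under R 4.3.3; lmFit and eBayes, trend on). P is two-sided and adjusted by Benjamini-Hochberg over all tested probe sets. Fits were tested on simulated data. Correlations used NumPy 2.4.6 and SciPy 1.17.1, with 100000 permutations for 10 lines and exact enumeration where a line was left out. Where a gene outside the members had several probe sets, the one of highest mean stood for it. Symbols come from the annotation of 2016. All 6 members are named. From each list the text names genes of lowest p or largest difference, with MTF1, SLC30A1 and HMOX1, which were set against MT2A, and ME1, TXNRD1 and GCLC, chosen after their values were seen, and by likeness the 10 highest and 5 lowest genes. Alternatives were quantile normalization, median centring, a floor at 200, a pseudocount of 50, other filters and variance models, age as log2 of years, and leaving out each line. Sequences of the genes were not used here, so the motif counts planned for promoters were not run.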

Additional observations from a re-analysis of the deposited data

Results flagged for a closer look

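Among 15 groups of values of the 5 tested members (male lines, female lines and all 10 lines), 1 held a line set apart from the rest. Chance sets apart about 1 in 20 such groups. It was MT1E in the male lines, where male line 5 read 1165 and the other 4 males 1765 to 1881. Its distance to the nearest line took up 0.867 of the range on the log2 scale, against a critical value of 0.71 for 5 samples. Male line 5 was one of the arrays with a floor of 90, and its MT1E value of 1165 lies far above that floor.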

How the results depend on the processing

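The count of called members was 0 for sex, age and the interaction under every alternative run. Over all tested probe sets the counts were 0 to 3 for sex (2 as reported), 0 or 1 for age (0 as reported) and 0 or 1 for the interaction (1 as reported). The age slopes of all 5 members stayed positive in every setting, down to 0.015 for MT1E without female line 2 and 0.036 for MT2A without female line 4. The pairs of members passing by Pearson's r numbered 3 as reported, 1 with median centring, 1 with a floor at 200, and 0 to 5 when each line was left out (exact permutation). The sex estimate of MT2A turned to -0.13 with a floor at 200 and ran from -0.057 to 0.345 without single lines, and the MT1X interaction from -0.64 to 0.42. The r of MT2A with SLC30A1 was 0.016 with a floor at 200. Without single lines it ran from -0.38 to 0.075 for SLC30A1, -0.45 to 0.15 for GCLM, -0.24 to 0.38 for HMOX1 and -0.32 to 0.20 for MT1X. The cause of these changes was not tested. The median SD of the members ran from 0.48 to 0.66 without single lines. MT1G and MT2A lie near the floor, where signal limits what can be seen. So do the lowest values of MT1X, 151 in female line 2 and 167 in the standard culture of male line 1. Its log2 difference at 50% confluence was 2.03 as reported, 1.77 with a floor at 200 and 1.76 with a pseudocount of 50.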
